A study of Mus musculus with 20 samples.

Results

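The endoplasmic reticulum (ER) genes described here are 53 genes for protein folding, stress response and secretion, measured in intestine of mice lacking Spdef, a transcription factor of the ETS family made by secretory cells of the gut epithelium. The genes were taken by name, and each was represented by its brightest probe; all 53 were on the array, and all 53 passed the filter on dim probes, out of 17076 genes tested of 27573 named. They comprised 10 chaperones, 6 disulfide isomerases and oxidases, 8 genes of ER-associated degradation (ERAD), 7 stress sensors and stress transcription factors, 11 genes of translocation and processing, and 11 of transport and retrieval. Golm1 is listed on the array under an older name, Golph2, and Ero1l and Ero1lb are now called Ero1a and Ero1b. Each of the 20 two-colour arrays carried RNA of a knockout (KO, Spdef-/-) pool in one channel and of a wild type pool in the other, and every pair of pools was hybridised in both dye orders. Pools combined whole-tissue RNA of 2 to 3 littermates, and no strain is given in the labels. Adult tissue was taken at postnatal day 30, with 2 pairs of pools from small intestine and 3 from colon, and fetal tissue at E18.5 (days of gestation), with 3 pairs from small intestine and 2 from colon. Values are log2 ratios of KO over wild type, so that a negative value is a lower signal in the KO pool; n counts pairs of pools.

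Proteins destined for secretion enter the ER through the Sec61 channel, lose their signal peptide, receive sugars, and are folded by chaperones and disulfide isomerases; those that fail to fold are sent back to the cytosol and degraded. COPII vesicles carry folded cargo to the Golgi, and KDEL receptors and COPI vesicles return escaped ER proteins. When folding demand exceeds capacity, sensors in the ER membrane (the kinases encoded by Ern1, Ern2 and Eif2ak3, and Atf6) start the unfolded protein response, in which XBP1, ATF6 and ATF4 raise the expression of many of these same genes. Goblet cells, which secrete mucins, and Paneth cells, which secrete antimicrobial proteins, carry a dense ER, and Ern2 is the sensor known to be restricted to such mucosal epithelia.

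Several features of the samples bear on all values below. The KO over wild type ratio of Spdef lay between -1.63 and -3.96 (log2) in the 9 replicates, below 0 in each. Pairs 1 and 2 of fetal small intestine could not be told from repeats of a single sample, since their difference had 0.844 times the variance of dye-swapped arrays (1.43 to 7.60 times for other pairs of a group), and they were counted as 1 replicate, which left 9. Among the fetal pools, regional markers of 2 pairs on a single slide went against their labels. In the wild type channel of the pair labelled fetal small intestine 3, Hoxb13, which marks the distal gut, stood at a log2 intensity of 11.6 and the small intestinal lactase gene Lct at 8.8, whereas in the pair labelled fetal colon 1 they stood at 7.0 and 16.4. Fetal small intestine pairs 1 and 2 had Hoxb13 at 7.1 and Lct at 16.0, and fetal colon pair 2 had 11.2 and 9.1. Labels were kept, KO and wild type shared the profile within each of these arrays, and results on fetal tissue are also given without that slide. In adult colon pair 1, 11 of the 53 genes (20.8%) lay more than 1 log2 unit below both other adult colon pairs in the wild type channel, and 11 did so in the KO channel, against 11.6% of all genes tested in either channel; for pairs 2 and 3 the count was 0. The median of 8 goblet cell markers was below 0 in all 9 replicates (-0.16 to -1.04). The median of 16 pancreatic acinar markers lay between -2.52 and 0.75 in the adult pairs. Both are set beside the results below.

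Promoter sequence is shown first because one element, the ER stress response element (ERSE), is known as the binding site through which ATF6 and XBP1 act on this family. RefSeq promoter windows (GRCm38.p6, from 250 bases before to 50 after a transcription start) were matched for 44 of the 53 genes; Hyou1, Derl1, Ern2, Atf6, Sec61a1, Tram1, Spcs3, Lman1 and Kdelr2 were not matched. The full ERSE, searched on both strands, is a CCAAT box and a CCACG box with 9 bases of any kind between them. It was present in windows of 10 of the 44 genes (22.7%) and of 0.137% of all 27025 genes with a window. The 11 matches are printed in the direction CCAAT to CCACG, with those boxes in capitals; Hsp90b1 has 2.

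Hspa5, chr2:34772025-34772043, plus strand: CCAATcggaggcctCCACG
Hsp90b1, chr10:86705638-86705656, minus strand: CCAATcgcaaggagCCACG
Hsp90b1, chr10:86705533-86705551, plus strand: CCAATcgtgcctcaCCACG
Calr, chr8:84847075-84847093, plus strand: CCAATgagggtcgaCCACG
Canx, chr11:50325800-50325818, minus strand: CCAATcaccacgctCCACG
Dnajc3, chr14:118937827-118937845, plus strand: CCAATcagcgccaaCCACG
Creld2, chr15:88819520-88819538, minus strand: CCAATtgaggctcgCCACG
Pdia6, chr12:17266491-17266509, plus strand: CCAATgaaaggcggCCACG
Ero1lb, chr13:12565682-12565700, minus strand: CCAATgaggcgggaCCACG
Syvn1, chr19:6046532-6046550, plus strand: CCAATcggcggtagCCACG
Derl3, chr10:75893242-75893260, minus strand: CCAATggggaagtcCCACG

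The related ERSE-II (an ATTGG box and a CCACG box with 1 base between them) was found in Dnajb11 and Herpud1. That is 4.55% of the 44 genes, against 0.0444% of all genes with a window. The UPR element TGACGTGG was found in Sec24d and Kdelr3 (4.55%, against 0.714% of all genes). The CCACG box alone, which both ERSE types contain, was in 77.3% of the matched genes and in 35.5% of all genes. CCGGAT, an ETS-type core, was in 6.82% of the matched genes and in 6.82% of all genes. The 250 bases before the start are shown for 4 genes that the results below turn on or that define the family, each in the direction of the gene with the element in capitals: Hspa5 and Calr for ERSE, Herpud1 for ERSE-II and Kdelr3 for the UPR element, which runs on the opposite strand in Kdelr3, as the ERSE does in Calr. A match of letters is a description and not a measured binding site.

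Hspa5, chr2:34771840-34772089, plus strand: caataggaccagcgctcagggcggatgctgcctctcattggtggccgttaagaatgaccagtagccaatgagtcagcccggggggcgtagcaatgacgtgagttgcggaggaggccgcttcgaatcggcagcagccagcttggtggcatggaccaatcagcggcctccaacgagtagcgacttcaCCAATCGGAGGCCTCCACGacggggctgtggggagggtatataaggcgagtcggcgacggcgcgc
Calr, chr8:84846932-84847181, minus strand: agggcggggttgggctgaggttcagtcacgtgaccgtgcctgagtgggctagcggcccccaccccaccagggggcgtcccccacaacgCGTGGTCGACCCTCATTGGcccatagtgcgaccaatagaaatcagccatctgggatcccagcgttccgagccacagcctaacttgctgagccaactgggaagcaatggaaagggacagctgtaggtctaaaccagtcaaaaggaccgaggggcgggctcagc
Herpud1, chr8:94386179-94386428, plus strand: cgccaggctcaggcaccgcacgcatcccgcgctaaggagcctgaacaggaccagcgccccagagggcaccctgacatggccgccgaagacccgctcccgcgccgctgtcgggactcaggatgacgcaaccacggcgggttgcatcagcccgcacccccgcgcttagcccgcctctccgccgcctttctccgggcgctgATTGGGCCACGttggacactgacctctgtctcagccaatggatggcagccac
Kdelr3, chr15:79516158-79516407, plus strand: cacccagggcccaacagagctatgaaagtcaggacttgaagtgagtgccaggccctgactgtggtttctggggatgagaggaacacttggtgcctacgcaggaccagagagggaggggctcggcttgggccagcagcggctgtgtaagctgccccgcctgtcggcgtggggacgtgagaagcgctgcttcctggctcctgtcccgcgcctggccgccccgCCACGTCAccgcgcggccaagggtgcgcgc

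KO and wild type differed little for most of the 53 genes. In adult colon, 5 genes rose and 7 fell (22.6% of the 53, against 9.59% of all genes tested; 3.93% of all genes rose and 5.66% fell) by limma's moderated test with Benjamini-Hochberg adjustment over all genes. In fetal small intestine 2 genes fell (background 0.439%, of which 0.31% lower). None passed in adult small intestine (background 0.398% called) or fetal colon (background 0.287% called). At an unadjusted p under 0.05 by limma there were 5 genes (9.43%) in each of these 2 groups. Over all genes the unadjusted shares were 12.1% in adult small intestine and 6.51% in fetal colon. In the mean of the 4 groups 4 genes fell and none rose (background 1.79%, of which 1.25% lower). Without adjustment, 30.2% of the 53 genes had p under 0.05 in adult colon, beside 27.6% of all genes. Sizes were small: the median absolute log2 difference of the 53 genes was 0.09 in small intestine at both stages, 0.11 in adult colon and 0.06 in fetal colon, and Ern2 was the one gene beyond 0.5 in any group. The median signed value was 0.02 in adult colon and -0.08 in adult small intestine, beside -0.0025 and -0.0087 over all genes. The KO effect did not differ detectably between stages or between tissues for any of the 53 genes (0 called in either contrast by limma, background 1.08% and 0.17%). At an unadjusted p under 0.05 there were 8 genes (15.1%) in each contrast, beside 19.4% and 8.3% of all genes. Nor did the KO effect differ detectably for any pair of groups (0 called by limma). The background was 0.158% between adult tissues, 0.228% between fetal tissues, 0.258% between stages in small intestine and 0.644% between stages in colon. At an unadjusted p under 0.05 there were 6 to 8 of the 53 genes, beside 1038 to 2458 of all 17076 genes. With adult pairs fitted alone, 5 genes passed in adult colon (background 4.57%): Ern2, Lman1, Spcs3, Herpud1 and Golm1. Leaving out the slide of the 2 fetal pairs that went against their labels is the same fit for adult colon. Each fetal group then kept 1 replicate, which adds nothing to the spread. Leaving out any 1 of the 9 replicates lowered the adult colon count of called genes from 12 to between 1 and 7. It was 1 without adult colon pair 1, 4 without pair 2 and 5 without pair 3. It was 6 without either fetal colon pair and 7 without any 1 of the small intestine replicates. Of the 12 genes, only Ern2, Lman1 and Spcs3 kept their calls without adult colon pair 3, so other genes made up the 5. In the contrast of stages 1 gene passed without adult colon pair 3. In bulk RNA such as this, fewer cells of a type and less RNA per cell cannot be told apart.

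**Figure D1:**
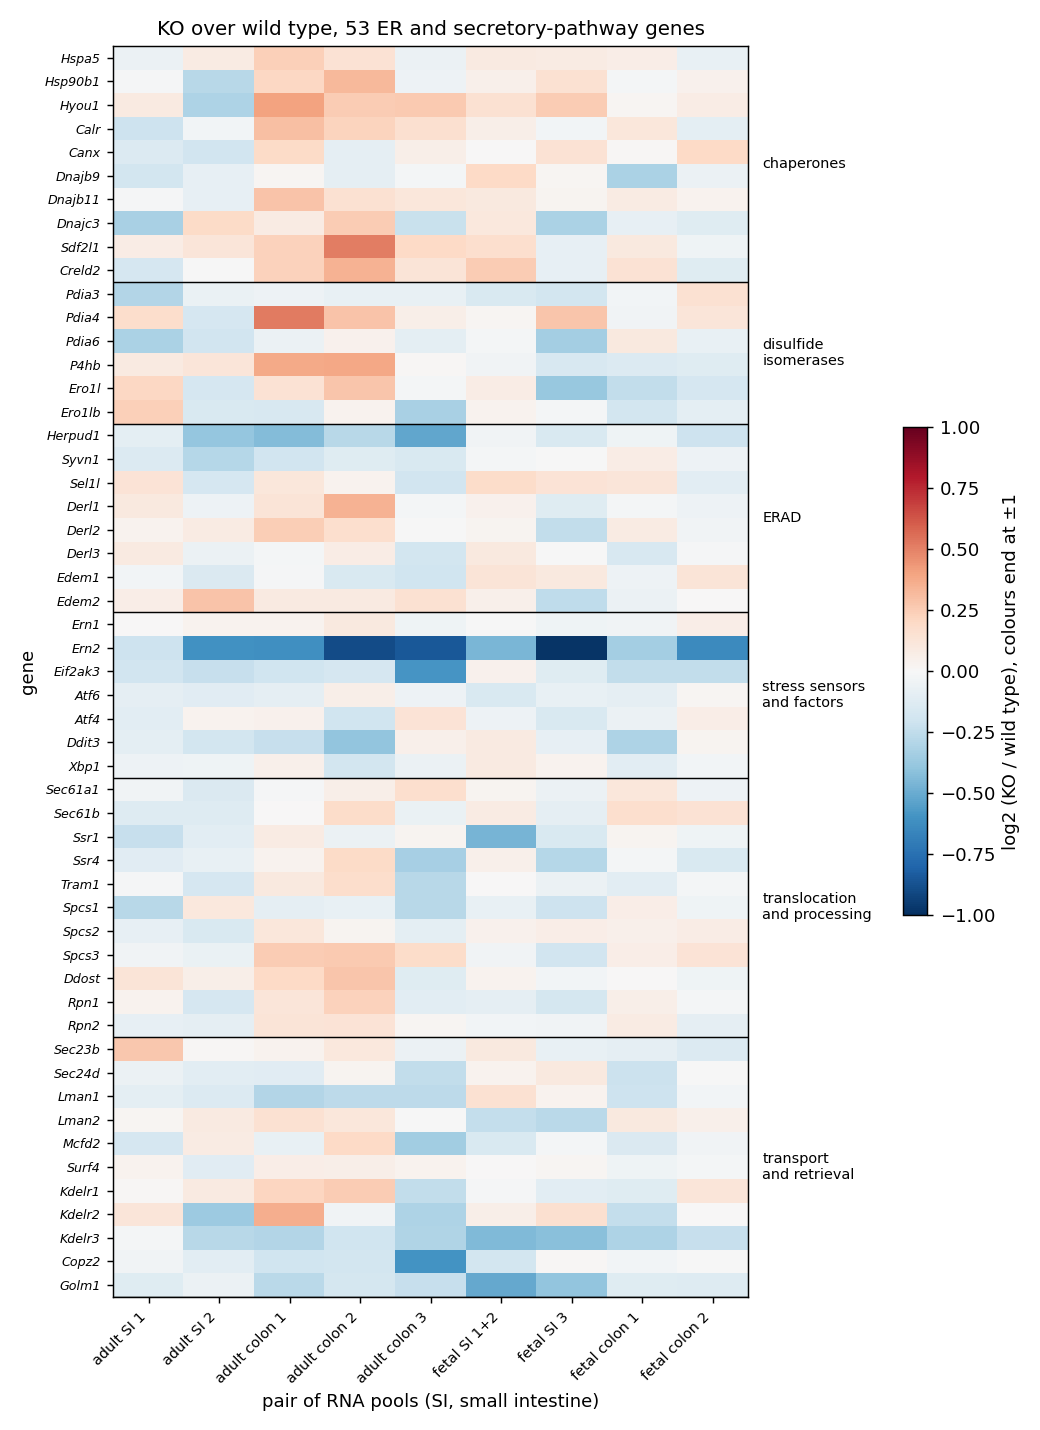
Log2 ratio of KO over wild type for 53 genes (rows, grouped by role) in 9 pairs of RNA pools (columns; blue lower and red higher in KO, colour scale from -1 to 1). Ern2 is blue in all 9 columns and the chaperone block is mostly red in adult colon pairs 1 and 2. All 10 chaperones are also above 0 in fetal small intestine pairs 1 and 2 (median 0.10).

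Ern2 encodes the epithelial paralogue of the ER stress sensor kinase IRE1. It showed the largest change of the 53 genes and was lower in KO on 20 of 20 arrays. Its log2 ratios were -0.21 and -0.61 in adult small intestine pairs 1 and 2, -0.62, -0.89 and -0.85 in adult colon pairs 1 to 3, -0.46 and -0.98 in the 2 fetal small intestine replicates, and -0.34 and -0.64 in the 2 fetal colon pairs. No pair reached 0. The adult colon pairs lay below the adult small intestine pairs without overlap, and both fetal groups overlapped with each adult group. Ern2 fell 1.72-fold in adult colon (-0.78 ± 0.12, SE, n = 3, adjusted p = 0.00879, limma) and 1.52-fold in the mean of the 4 groups (-0.60 ± 0.068, n = 9, adjusted p = 0.00548). In the other groups the estimates were -0.41 in adult small intestine, -0.49 in fetal colon and -0.72 in fetal small intestine, none of which passed. Both calls held when any 1 replicate was left out. Without the slide of the 2 fetal pairs that went against their labels, 1 replicate was left in each fetal group. The mean was then -0.57, and its call was lost. The probe lies on chromosome 7, positions 121964498 to 121964640 (mm8, as the files give it).

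The other stress sensors and factors moved less. Eif2ak3, the kinase PERK that slows translation under ER stress, fell in adult colon (-0.32 ± 0.080, adjusted p = 0.0438), with -0.20, -0.17 and -0.59 in the 3 pairs, so pair 3 stood apart from the other two. It was lower in 8 of 9 replicates, and the adult colon call was lost when any 1 of the 9 was left out. Xbp1, the transcription factor activated by IRE1 splicing, gave -0.06 in adult colon and -0.03 in the mean, with single pairs from -0.19 to 0.09. Ern1, the ubiquitous paralogue of Ern2, lay between -0.04 and 0.10 in all 9 replicates. Atf6 and Atf4 lay at -0.07 and -0.04 in the mean, and Ddit3, the gene of the stress factor CHOP, at -0.12. In all, 2 of the 7 genes fell in adult colon (background 5.66% lower), 1 fell in the mean of the 4 groups (background 1.25% lower), and none rose.

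Of the 5 genes that rose in adult colon, 4 were chaperones. In adult colon 4 of 10 rose (3.93% of all genes did), none fell, and 9 of 10 estimates were above 0 (median 0.17). In fetal small intestine 9 of 10 were also above 0 (median 0.08), and in fetal colon 7 of 10 (median 0.01). None passed in either. On their brightest probes, 8 of 10 were below 0 in adult small intestine (median -0.10) and none passed. Other probes there gave 0.145 for Calr, 0.10 for Hsp90b1, and 0.03 and -0.06 for Canx. Those of Dnajb9 and Dnajc3 were below 0. Hyou1, a large chaperone of the HSP70 family, gave 0.40, 0.25 and 0.27 in adult colon pairs 1 to 3 (0.31 ± 0.073, adjusted p = 0.0385), and 0.09 and -0.31 in the adult small intestine pairs. All 3 colon pairs were above 0, and the 2 small intestine pairs lay on either side of it. Sdf2l1, which works with Hspa5 and its co-chaperones, gave 0.23, 0.51 and 0.20 (0.31 ± 0.073, adjusted p = 0.0369). Calr, the lectin chaperone calreticulin, gave 0.30, 0.22 and 0.16 (0.23 ± 0.058, adjusted p = 0.0470), and its other probe gave 0.26. Dnajb11, a co-chaperone of Hspa5, gave 0.29, 0.15 and 0.12 (0.19 ± 0.046, adjusted p = 0.0428). These 4 rises were of 1.14-fold to 1.24-fold. Hspa5 itself, the central ER chaperone BiP, gave 0.24, 0.14 and -0.06 (0.11), and Hsp90b1 gave 0.21, 0.33 and -0.05; for both, pairs 1 and 2 were higher in KO and pair 3 was not. Neither passed, nor did Creld2 (0.24), which was above 0 in all 3 pairs. The calls of Calr and Dnajb11 were lost when any 1 of the 9 replicates was left out, and those of Hyou1 and Sdf2l1 in 7 of 9 cases (Hyou1 was kept without either adult small intestine pair, Sdf2l1 without either fetal small intestine replicate). The 10 genes with a full ERSE had a median of 0.05 in adult colon with 1 of them called (Calr), and the 34 matched genes without one a median of 0.02 with 2 higher and 5 lower.

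**Figure D2:**
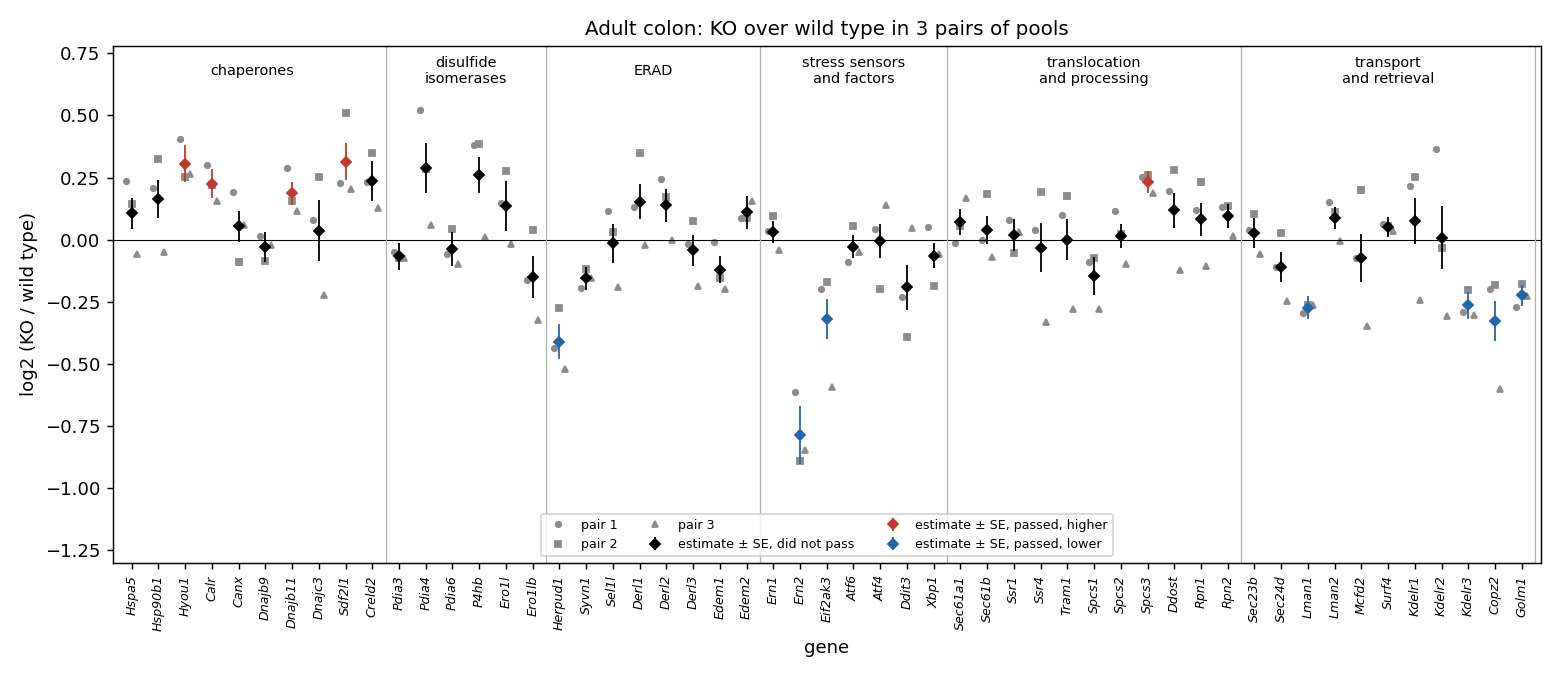
Log2 ratio of KO over wild type in adult colon for the 53 genes, grouped by role: grey symbols are the 3 pairs of pools, and diamonds the limma estimate with its standard error, coloured where the adjusted p is under 0.05. The 5 genes in red lie between 0.19 and 0.31, and Ern2 lies lowest at -0.78.

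Disulfide isomerases and oxidases, which form and rearrange disulfide bonds, had 0 of 6 genes past the threshold in any group; 2 of them had an unadjusted p under 0.05 in adult colon by limma. Those 2 were Pdia4 (0.52, 0.28 and 0.06 in adult colon pairs 1 to 3; estimate 0.29) and P4hb (0.38, 0.39 and 0.01; estimate 0.26, adjusted p = 0.0612). In both, pair 3 was near 0. P4hb, the main protein disulfide isomerase, passed in adult colon (adjusted p = 0.0450; background 10.6%) when all fetal pairs were fitted as 1 group, where Golm1 did not. Pdia6 gave -0.31 and -0.19 in adult small intestine, -0.06, 0.04 and -0.10 in adult colon, -0.02 and -0.34 in fetal small intestine, and 0.10 and -0.07 in fetal colon. It was negative in 7 of 9 replicates, with a mean of -0.11 that did not pass.

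Among the 8 ERAD genes, Herpud1 fell and the other 7 did not pass. Herpud1 encodes a membrane protein that organises the retrotranslocation complex and is a widely used target of the stress response. It gave -0.44, -0.28 and -0.52 in adult colon (-0.41 ± 0.071, a fall of 1.33-fold, adjusted p = 0.0146), -0.10 and -0.38 in adult small intestine, -0.04 and -0.15 in fetal small intestine, and -0.04 and -0.21 in fetal colon. All 9 replicates were below 0 (17 of 20 arrays), with the adult colon pairs among the lowest. Its mean over the 4 groups was -0.22 ± 0.042 (adjusted p = 0.0461); 7 of the 9 leave-one-out fits lost that call, which was kept without adult small intestine pair 1 or adult colon pair 2. The adult colon call was lost without adult colon pair 1 or pair 3. Syvn1, the ubiquitin ligase of the same complex, was negative in all 5 adult pairs (-0.12 to -0.29) without passing. Derl1 and Derl2, which form part of the membrane channel, were above 0 in adult colon on their brightest probes (0.15 and 0.14), and Derl3 was at -0.04. Other probes of Derl1 gave 0.20, 0.20 and -0.01 there, and the other probe of Derl2 gave -0.10.

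Of the 11 translocation and processing genes, Spcs3, a subunit of signal peptidase, rose in adult colon. Its pairs gave 0.25, 0.26 and 0.19 (0.23 ± 0.044, adjusted p = 0.0198), and its other 2 probes gave 0.32 and 0.26. The 3 pairs lay close together, all above the adult small intestine pairs at -0.03 and -0.06. The call was lost without adult colon pair 1 or pair 2. The other 10 genes did not pass: Sec61a1, the pore of the channel, gave 0.07, and the oligosaccharyltransferase genes Ddost, Rpn1 and Rpn2 gave 0.12, 0.08 and 0.09. In adult small intestine 10 of the 11 were below 0 on their brightest probes (median -0.09). Other probes there were above 0 for Rpn2 (0.21), Sec61a1 (0.09 and 0.01) and Spcs3 (0.01 and 0.01). Those of Ssr4, Tram1, Spcs2 and Rpn1 were below 0. Ssr1, of the translocon-associated complex, gave -0.23 and -0.11 in adult small intestine, 0.08, -0.06 and 0.03 in adult colon, -0.47 and -0.15 in fetal small intestine, and 0.03 and -0.04 in fetal colon. On this probe the small intestine pairs were all below the colon pairs, but no contrast passed and the gene's other 2 probes did not show that order. In the adult tissues, small intestine first, they gave 0.40 and 0.55 on one probe and -0.17 and -0.16 on the other; in the fetal tissues, in the same order, they gave -0.16 and -0.32, and -0.24 and 0.13.

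Of the 11 transport and retrieval genes, 4 fell in adult colon (Lman1, Kdelr3, Copz2 and Golm1), where 5.66% of all genes fell. In fetal small intestine 2 fell (Kdelr3 and Golm1, background 0.31% lower). In the mean of the 4 groups the same 2 genes fell (background 1.25% lower). Kdelr3, 1 of 3 receptors that return ER proteins from the Golgi, was lower in all 9 replicates and on 19 of 20 arrays. It gave -0.02 and -0.28 in adult small intestine, -0.29, -0.20 and -0.30 in adult colon, -0.44 and -0.42 in fetal small intestine, and -0.31 and -0.23 in fetal colon. The pairs labelled fetal small intestine were the lowest and did not overlap any other group, and pair 3 among them is a pair whose regional markers went against its label. It fell by 0.43 on the log2 scale in fetal small intestine (1.35-fold, adjusted p = 0.0429), and the mean was -0.28 ± 0.032 (adjusted p = 0.00553). The fetal small intestine call was lost in 7 of the 9 leave-one-out fits (kept without either adult small intestine pair), and the adult colon call (-0.27 ± 0.054, adjusted p = 0.0252) without any 1 of the 3 adult colon pairs; the mean's call held in all 9. Its paralogues Kdelr1 and Kdelr2 did not pass in any group or in the mean, with means of 0.02 and -0.03 on their brightest probes. Kdelr2 ranged from -0.36 to 0.36 between pairs, and its other probe was below 0 in all 4 groups (mean -0.09).

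Golm1, a Golgi membrane glycoprotein, was also lower in all 9 replicates. Its values were -0.12 and -0.06 in adult small intestine, -0.27, -0.18 and -0.23 in adult colon, -0.51 and -0.40 in fetal small intestine, and -0.12 and -0.13 in fetal colon. Fetal small intestine as labelled, with pair 3 among its 2 replicates, was again lowest without overlap, at -0.45 ± 0.051 (1.37-fold lower, adjusted p = 0.00914, limma), and the mean was -0.22 ± 0.024 (adjusted p = 0.00436). The fetal call was lost without either fetal small intestine replicate, and the adult colon call (-0.22 ± 0.041, adjusted p = 0.0180) without pair 1 or pair 3; the mean's call held in all 9 leave-one-out fits. The difference of its KO effect between fetal and adult small intestine (0.37 ± 0.072) did not pass (adjusted p = 0.105). Without the slide of the 2 fetal pairs that went against their labels, 1 replicate was left in each fetal group. The spread then came from the adult pairs alone. None of the calls in fetal small intestine or in the mean of the 4 groups was kept there. The means were -0.24 for Golm1, -0.27 for Kdelr3 and -0.22 for Herpud1. With all fetal pairs as 1 group, Kdelr3 passed over the fetal pairs (-0.35 ± 0.052, adjusted p = 0.0337; background 0.299%) and the mean kept its 4 calls (background 1.84%).

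**Figure D3:**
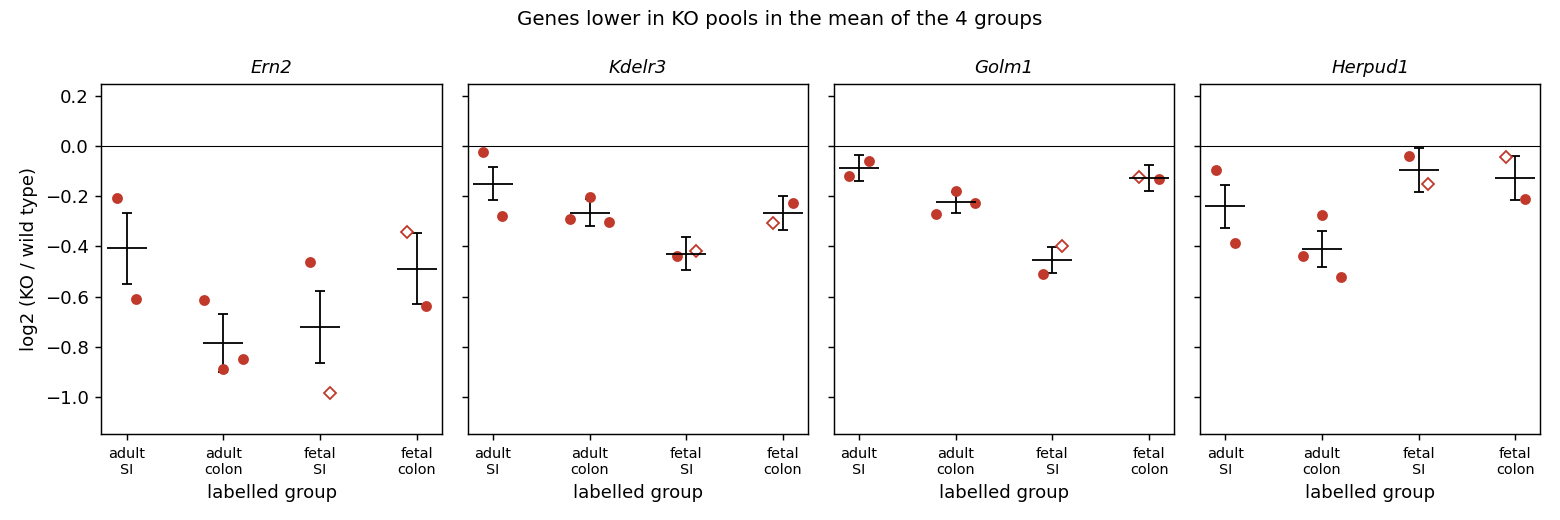
Log2 ratio of KO over wild type for Ern2, Kdelr3, Golm1 and Herpud1 in each replicate (points), with the limma estimate and standard error per labelled group (bars). Every point lies below 0; open diamonds mark the 2 fetal pairs whose regional markers went against their labels.

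Lman1 and Copz2 fell in adult colon only by this threshold; the difference from other groups was tested and did not pass. Lman1, a cargo receptor for glycoproteins, gave -0.30, -0.26 and -0.26 (-0.27 ± 0.047, adjusted p = 0.0145), with its second probe at -0.09. The call was lost without adult colon pair 1. Mcfd2, its partner subunit, had an estimate of -0.07, with pairs from -0.35 to 0.20. Copz2, a COPI coat subunit, gave -0.20, -0.18 and -0.60 (-0.33 ± 0.082, adjusted p = 0.0435), so pair 3 stood apart, and its second probe gave -0.24; the call was lost when any 1 of the 9 replicates was left out. The COPII genes Sec23b and Sec24d, and the cargo receptor Surf4, gave 0.03, -0.11 and 0.05 and did not pass.

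Cell type marker values are given beside these values, and no relation between them was tested. The median of the goblet markers was below 0 in every pair. In adult colon 4 of the 8 were called lower and 1 higher, and Tff3, the highest of them, gave 0.36, 0.74 and 0.57. The goblet medians in adult colon were -0.31, -0.41 and -0.48 in pairs 1 to 3, beside chaperone medians of 0.231, 0.235 and 0.0882 and transport and retrieval medians of -0.07, 0.03 and -0.25. The summed goblet marker level of the wild type pools was 18.8 and 18.9 in adult small intestine, 19.5 to 19.6 in adult colon and 17.6 to 18.7 in fetal pools. The part of these markers' cells in the falls of Ern2, Kdelr3, Golm1 and Herpud1 was not tested. The 8 Paneth cell markers had a median of -1.38 in adult small intestine (all below 0, 5 called lower by limma, background 0.234%). In adult colon it was 0.26 (all above 0, 2 called higher, background 3.93%). In fetal small intestine it was -0.77 (all below 0, 2 called lower, background 0.31%). In fetal colon it was -0.22 (6 of 8 below 0, 0 called). The part of Paneth cells in the ER gene values was not tested. Plasma cell markers, whose cells also carry a dense ER, had medians above 0 in the adult pairs (medians of 8 markers 0.38 and 0.15 in small intestine, 0.23, 0.13 and 0.34 in colon; 1 of 8 called in colon, where 9.59% of all genes were), and about 0 in fetal pairs; their part in the chaperone values was not tested. Acinar markers had medians of -2.08, 0.01 and -2.52 in adult colon pairs 1 to 3 and of 0.75 and -1.92 in the adult small intestine pairs, with 0 of 16 called in either tissue by limma (10 of 16 at an unadjusted p under 0.05 in adult colon, 0 of 16 in adult small intestine). The acinar markers' part in these values was not tested. Smooth muscle markers were lower in all 3 adult colon pairs (medians of 6 markers -0.25, -0.55 and -0.18; 0 called by limma and 5 at an unadjusted p under 0.05), and their part was not tested.

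**Figure D4:**
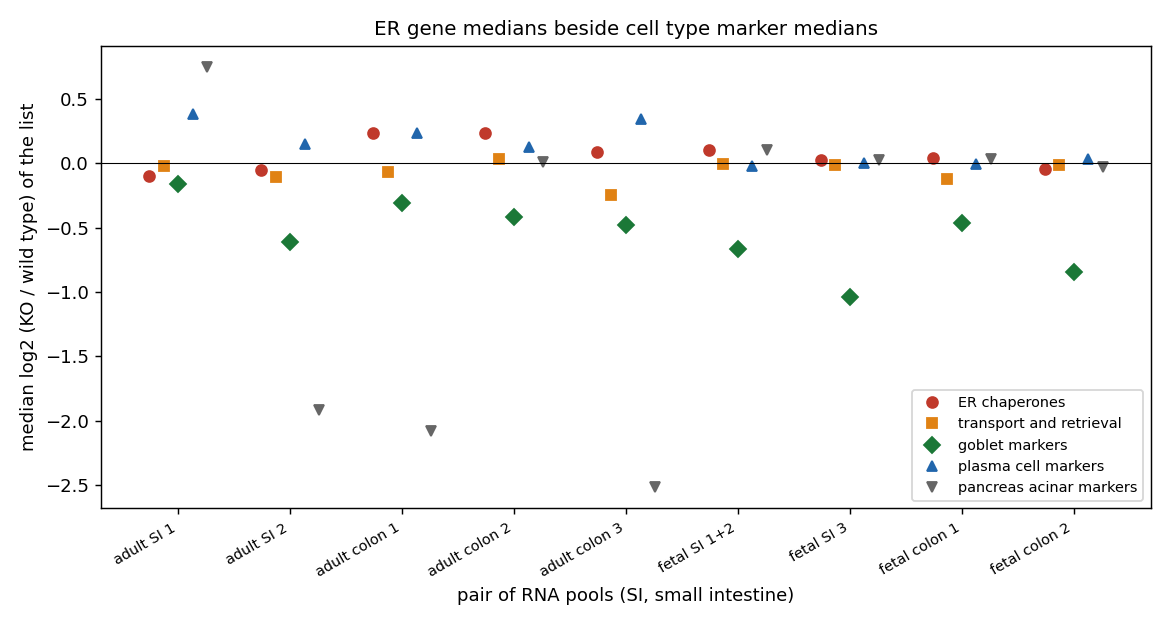
Median log2 ratio of KO over wild type for 2 groups of ER genes and 3 lists of cell type markers in each of the 9 pairs of pools. Goblet marker medians lie below 0 in every pair, and acinar marker medians lie between -2.52 and 0.75 in adult pairs and near 0 in fetal pairs.

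A wider set of 146 further genes of the same pathways was examined, of which 141 were measured. In adult colon 1 rose and 13 fell (background 9.59% in either direction), in the mean of the 4 groups 1 rose and 6 fell (background 1.79% in either direction), and none passed in adult small intestine, fetal small intestine or fetal colon (23, 14 and 5 genes at an unadjusted p under 0.05 by limma). Over all genes 12.1%, 7.54% and 6.51% had an unadjusted p under 0.05 by limma in those groups, in the same order. The 14 called of 141 in adult colon are a share close to that of all genes, and nothing about these lists is read from it. The 1 that rose was Atf3, a stress-induced transcription factor, at 0.56, 0.51 and 0.50 in adult colon (0.52 ± 0.046, adjusted p = 0.00159); it was also the 1 gene whose KO effect was higher in adult than fetal tissue (0.34 ± 0.054, adjusted p = 0.0362). The falls with the smallest adjusted p in adult colon were Ergic1, of the ER-Golgi intermediate compartment (-0.53 ± 0.073, adjusted p = 0.00672), Sec62, an auxiliary protein of the Sec61 channel (-0.37 ± 0.059, adjusted p = 0.0113), and Eif2ak4, the amino acid sensor kinase GCN2 (-0.33 ± 0.060, adjusted p = 0.0166). In the mean they were Ergic1 (-0.34 ± 0.043, adjusted p = 0.00842), Mbtps1, the Golgi protease that activates ATF6 (-0.23 ± 0.037, adjusted p = 0.0246), and Dnajc10, a disulfide reductase for ERAD (-0.27 ± 0.045, adjusted p = 0.0269). Ergic1 was negative in all 9 replicates, from -0.12 to -0.70. By list, the adult colon falls comprised 3 of 31 folding genes, 2 of 17 ERAD genes, 2 of 21 stress response genes, 3 of 29 translocation and glycosylation genes, and 3 of 43 transport genes.

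Wild type levels were compared in log2 intensity after scaling between arrays. For Ern2 in adult colon the 3 wild type pools stood at 10.34, 10.26 and 10.52, and in adult small intestine at 8.19 and 8.47. The fetal small intestine replicates stood at 8.05 (pairs 1 and 2) and 8.88 (pair 3), and fetal colon pairs 1 and 2 at 7.91 and 8.75. The adult colon pools were above all others, with no overlap. The level was 4.13-fold higher in adult colon than in adult small intestine (2.04 ± 0.33, adjusted p = 0.0205, limma; background 3.16%) and 4.12-fold higher than in fetal colon (2.04 ± 0.33, adjusted p = 0.0124; background 9.14%), a call lost without adult colon pair 3 or fetal colon pair 1. Among the 53 genes Ern2 was the only one called between the adult tissues in the fit of all groups. That call was lost when any 1 of the 5 adult pairs was left out (2.06, adjusted p = 0.0545, limma, without colon pair 1). Mcfd2 (-2.07), Golm1 (1.80) and Surf4 (-1.79) had differences of similar size with adjusted p of 0.227, 0.179 and 0.203. Mcfd2 and Surf4 were low in adult colon pair 1 (-2.30 and -2.18 from the mean of the other colon pairs), which enlarges their differences. Their second probes differed there by 0.25 and -0.40.

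With adult pairs fitted alone, 6 genes passed between the tissues (background 9.04%). Higher in colon were Ern2, Golm1 (1.80 ± 0.24, adjusted p = 0.00998), Copz2 (1.28 ± 0.22, adjusted p = 0.0228) and Kdelr3 (0.97 ± 0.20, adjusted p = 0.0410); lower in colon were P4hb (-1.29 ± 0.22, adjusted p = 0.0212) and Sec24d, a COPII cargo adaptor (-1.22 ± 0.19, adjusted p = 0.0170). Golm1 stood at 15.94, 15.36 and 15.70 in adult colon pools and at 14.05 and 13.69 in adult small intestine. P4hb stood at 12.90, 13.09 and 13.26 in colon and at 14.15 and 14.60 in small intestine. In the fetal pools P4hb stood at 15.33 in small intestine pairs 1 and 2, 13.97 in pair 3, 15.50 in colon pair 1 and 13.53 in pair 2, so the pools of each labelled tissue lay on both sides. Golm1 did the same (12.97, 14.93, 12.83 and 14.28), as did Sec24d (11.82, 10.43, 11.67 and 9.93). In each of these genes the value of the pair labelled fetal small intestine 3 lay nearest fetal colon pair 2 among the fetal pools, and that of the pair labelled fetal colon 1 nearest fetal small intestine pairs 1 and 2. Between the labelled fetal tissues 0 of the 53 genes passed by limma (0 at an unadjusted p under 0.05; background 0.00586%); without that slide, with 1 replicate left in each fetal group and their spread taken from the adult pairs, Sec24d was lower in fetal colon (-1.89, adjusted p = 0.0374; background 3.00%).

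**Figure D5:**
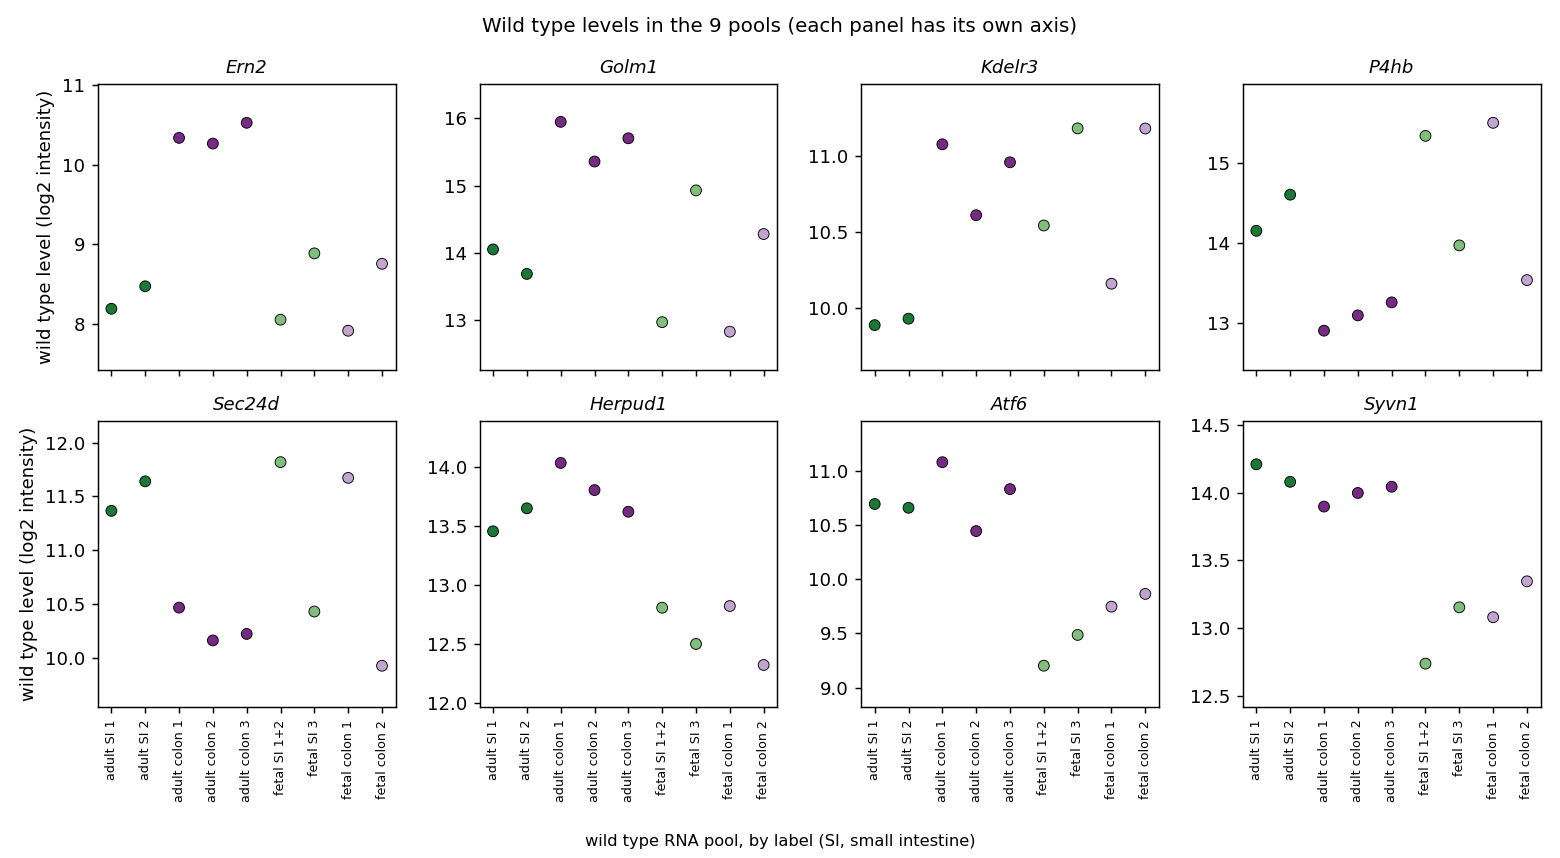
Wild type level (log2 intensity) of 8 genes in the 9 wild type pools, named by label; dark points are adult and light points fetal, green small intestine and purple colon, and each panel has its own vertical axis. Ern2 is highest in the 3 adult colon pools, and for Golm1, P4hb and Sec24d the fetal pools of each label split.

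Of the wild type differences with stage that passed, most were higher in adult tissue, and so were those of all genes. The shares called were close to those of all genes, and nothing about the 53 genes as a set is read from them. At an unadjusted p under 0.05 by limma the shares were 30.2% in small intestine and 22.6% in colon. Over all genes they were 26.4% and 26.8%. Between adult and fetal small intestine 5 genes were higher and 1 lower (11.3% of the 53; background 8.84%, of which 5.04% higher and 3.79% lower). Those higher were Atf6 (1.33 ± 0.24, adjusted p = 0.0190), Edem1, a lectin that routes misfolded glycoproteins to ERAD (1.21 ± 0.27, adjusted p = 0.0390), Syvn1 (1.20 ± 0.21, adjusted p = 0.0163), Hyou1 (1.10 ± 0.26, adjusted p = 0.0456) and Dnajb11 (0.82 ± 0.16, adjusted p = 0.0260), and Pdia6 was lower (-0.94 ± 0.21, adjusted p = 0.0362). Syvn1 stood at 14.21 and 14.08 in the adult pools and 12.74 and 13.15 in the fetal ones, and Atf6 at 10.69 and 10.66 against 9.20 and 9.49. Neither gene overlapped between the stages. Between adult and fetal colon 7 genes were higher and none lower (13.2%; of all genes 9.14% passed and 6.06% were higher). Besides Ern2 they were Herpud1 (1.25 ± 0.23, adjusted p = 0.0186), Edem1 (1.13 ± 0.25, adjusted p = 0.0347), Atf6 (0.98 ± 0.22, adjusted p = 0.0364) and Eif2ak3 (0.97 ± 0.20, adjusted p = 0.0293); the remaining 2, with smaller changes, were Syvn1 (0.77) and Dnajb11 (0.62). Herpud1 stood at 14.04, 13.81 and 13.62 in adult colon and at 12.82 and 12.32 in fetal colon, again without overlap. Markers of plasma cells, which populate the gut after birth, also differed with stage: their summed wild type level was 14.8 to 15.03 in adult pools and 12.1 to 12.3 in fetal pools, Jchain standing at 14.3 to 14.5 against 7.0 to 8.0. Their part in these differences was not tested. Without the slide of the 2 fetal pairs that went against their labels, Syvn1 and Edem1 passed in small intestine (background 6.43%), and in colon Ern2, Herpud1, Edem1, Eif2ak3, Dnajc3, Derl3 and Golm1 did (background 10.1%). Leaving out 1 replicate gave 0 to 12 genes in small intestine: 0 without either adult small intestine pair or fetal small intestine pairs 1 and 2, 1 without fetal small intestine pair 3, 2 without adult colon pair 3, 3 without pair 2 and 12 without pair 1. In colon it gave 1 to 6: 1 without adult colon pair 3 or fetal colon pair 2, 2 without either adult small intestine pair or fetal colon pair 1, and 4 without either fetal small intestine replicate or adult colon pair 2.

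In adult colon pair 1, low wild type levels came with low KO levels. The 11 genes low in it were Rpn2, Xbp1, Mcfd2, Ddost, Surf4, Hsp90b1, Sdf2l1, Tram1, Dnajb9, Sec61a1 and Derl1, with differences of -1.27 to -2.90 log2 units from the mean of the other pairs. For Rpn2 the pools stood at 12.31, 15.27 and 15.15, and for Xbp1 at 9.30, 11.89 and 11.39. The drop belonged to single probes in part: second probes of Rpn2, Hsp90b1, Mcfd2 and Dnajb9 differed from the other pairs by 0.12, -0.03, 0.25 and 0.27. The ratios of these genes in pair 1 lay between -0.07 and 0.23. Of the further genes in the wider set, Trib3, a stress-induced pseudokinase, was the 1 called between the adult tissues in wild type (-2.89 ± 0.22, lower in colon, adjusted p = 0.000726), and Atf3 was higher in adult than fetal small intestine (1.95 ± 0.21, adjusted p = 0.00284) and colon (1.79 ± 0.20, adjusted p = 0.00286).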

How the data were processed

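Spot intensities, deposited as red and green mean and background signals, came from Agilent Feature Extraction 9.5.3, per the file headers, and probe coordinates are mm8. The deposited log10 ratio (Cy5 over Cy3) served to check the dye direction, and the authors' table of log2 ratios, whose scale and centring are not stated, served as an alternative. Here intensities were corrected with normexp (offset 50) and loess in limma 3.58.1 (R 4.3.3), ratios were turned to KO over wild type, control and outlier spots were left out, and each pair's dye swap was averaged. Probes had to exceed background clearly on every array of some group and genotype. In the channels of single arrays, 39.75% to 71.59% of probes exceeded it clearly. Of the probes that passed the filter, a gene's brightest was used. The number of arrays limits the precision. Wild type levels were scaled between arrays (Aquantile). All groups were fitted together with a common variance, with Benjamini-Hochberg adjustment over 17076 genes (threshold 0.05); errors are standard errors, and p-values measure the spread between these pools of littermates.

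The 53 genes, the lists and their tests were chosen with earlier results of these data known. Pair values are given for genes past the threshold and for the best known gene and the gene with the smallest adjusted p in each role; up to 5 genes each way are named for a wild type comparison and up to 3 for the wider lists. Genes were named by accession for 23313 of 41174 probes and otherwise by symbol. Same-numbered pairs of different groups were not related (correlations of deviations -0.133 to 0.152), so numbers were not used as a block. Scripts were tested on simulated data. Alternatives covered background correction, normalization, filters, probe choice, blocks, prior, single groups and left-out replicates. Fitting all fetal pairs as 1 group and fitting adult pairs alone were chosen after seeing the data. Plots were drawn with matplotlib 3.10.9.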

Additional observations from a re-analysis of the deposited data

How the results depend on the processing

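None of the 32 called values of single genes changed direction under any alternative that gave a value. Of 672 such values, 359 stayed past the threshold and 313 did not. Many alternatives left an estimate as it was by design, so its direction could not change there. Examples are another prior, or a left-out replicate of a group that the estimate does not use. Counts below are of any of the 53 genes called, not only of those called in the fit reported above. The count of 12 in adult colon became 2 with the scanner's processed signals, 7 without background subtraction and 1 with median centring. It became 1 with each group fitted alone, 3 with a trended and robust prior, 3 in the authors' series table and 5 with adult pairs alone. For the adult groups, leaving out the slide of the 2 fetal pairs that went against their labels is the same fit as adult pairs alone. The 2 called in fetal small intestine became 1 with processed signals or in the series table, 5 with pairs 1 and 2 separate, and 0 with median centring, without that slide, alone, or with the trended prior. The 4 called in the mean became 1 with median centring and 0 without that slide or with the trended prior. With processed signals 1 gene was called in adult small intestine and 1 in fetal colon. The cause was not tested.

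Among wild type comparisons, adult colon against adult small intestine had 2 with processed signals and 6 with adult pairs alone (1 as reported). For this comparison, leaving out that slide is the same fit as adult pairs alone. Adult against fetal small intestine had 12 with pairs separate and 2 without that slide or with the trended prior (6 as reported). Adult against fetal colon had 2 with the trended prior (7 as reported), and fetal colon against fetal small intestine had 1 without that slide (0 as reported).

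With the replicate number as a block, the mean had 1 called gene, adult colon 1 and fetal small intestine 0, and 0, 0 and 1 in wild type between adult tissues, stages of small intestine and stages of colon. The numbers were not shown to pair the samples.

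Leaving out 1 replicate gave 0 genes in adult small intestine and in fetal colon, 1 to 7 in adult colon, 0 to 2 in fetal small intestine, 3 to 4 in the mean, 0 to 1 for adult minus fetal and 0 for small intestine minus colon. In wild type it gave 0 to 1 between adult tissues, 0 to 12 and 1 to 6 between stages of small intestine and colon, and 0 between fetal tissues. A group left with 1 replicate was assumed to vary like the others. Ern2, Kdelr3 and Golm1 kept their calls in the mean in all 9 such fits. With 9 replicates of pooled animals and 5 residual degrees of freedom, differences under 0.2 log2 units were mostly not called.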
